A study of Arabidopsis thaliana with 12 samples.

Results

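The genotype by ABA interaction was measured across genes in all 12 libraries of the series. For each gene it is the ABA response of OK100-oct seedlings minus the ABA response of wild-type (WT, accession Col-0) seedlings, and each response is the log2 ratio of ABA-treated to control seedlings. A negative value means that a gene gained less, or lost more, with ABA in OK100-oct than it did in WT, and a positive value means the reverse. Of the 33602 genes in the count table, 20617 had enough counts to be tested. The groups were OK100-oct with ABA, OK100-oct under control conditions, WT with ABA and WT under control conditions, with 3 libraries each. All were seedlings of Arabidopsis thaliana, 12 days old by the sample labels and slightly older by the study's methods. OK100-oct is a mutant line with null alleles of 8 RAF protein kinase genes (RAF3 to RAF5 and RAF7 to RAF11), made with CRISPR-Cas9. The labels call the mutant m9, which was read as OK100-oct because the methods name that line for this experiment. From the label alone it could also be OK100-nonu, a line that carries a mutation of RAF6 in addition. All mutant libraries come from 1 line, and the ABA dose and time of the sequenced seedlings are not given in the sources used here.

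Abscisic acid (ABA) is the plant hormone of drought and seed dormancy. It binds receptors of the PYR/PYL family, which then hold back the clade A protein phosphatases 2C (PP2Cs), the inhibitors of SnRK2 protein kinases. Active SnRK2s phosphorylate targets such as the group A bZIP transcription factors, which bind ABA-responsive elements with an ACGTG core, and RAF kinases act on the SnRK2s.

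Libraries held 16632701 to 26661613 counts in total, and replicates varied with a biological coefficient of variation of 11.9%. RAF5, 1 of the mutated genes, had 50.9, 43.1 and 52.4 CPM (counts scaled to the size of the library, comparable between libraries within a gene) in OK100-oct with ABA and 26.3, 35.3 and 34.1 CPM in OK100-oct under control conditions, against 86.9, 82.7 and 76.5 CPM in WT with ABA and 62.7, 70.2 and 77.6 CPM in WT under control conditions. The mutant libraries were thus lower than the WT libraries of the same treatment, with no overlap. Of the 8 mutated genes, 6 were lower in OK100-oct under ABA, as were 20.7% of all tested genes, and 5 under control conditions, as were 2.29% of all tested genes. None of the 8 was higher, where 21.3% of all tested genes were higher under ABA and 2.58% under control conditions. Control replicate 3 of WT stood apart from its group, with a chi-square per gene of 46.8 and 27.4 against its 2 partners, where other pairs of replicates lay between 4.39 and 24.6. Its deviations correlated across genes with those of control replicate 2 of OK100-oct (r = 0.46). DIN2, a beta-glucosidase gene known for its induction in dark and sugar-starved leaves, had 412, 316 and 398 CPM in OK100-oct with ABA and 13.6, 63.2 and 27.1 CPM in OK100-oct under control conditions, against 1359, 1342 and 1426 CPM in WT with ABA and 30.1, 26.03 and 105 CPM in WT under control conditions. These 2 libraries held the highest control values of DIN2 in their groups, and the part of this difference in the interaction was not tested beyond leaving each library out.

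The ABA response differed between the genotypes (FDR < 0.05, edgeR's quasi-likelihood test) for 3747 genes, or 18.2% of those tested. It was more negative in OK100-oct for 1969 genes (9.55%) and more positive for 1778 genes (8.62%). Leaving out 1 library at a time gave 1428 to 2635 negative and 1125 to 2797 positive genes. The balance turned without control replicate 3 of WT, with 2635 negative and 2797 positive genes, and without control replicate 2 of OK100-oct there were 1519 negative and 1335 positive genes. With library totals alone in place of TMM factors, which correct for composition, the split was 1377 negative to 3028 positive, and the median interaction of all genes was 0.18, against 0.05 with TMM. The genes with a negative interaction had a median ABA response of 0.52 in OK100-oct and 1.32 in WT on the log2 scale. Those with a positive interaction had a median of -0.32 in OK100-oct and -1.17 in WT. Both sets therefore held mainly genes whose response was smaller in the mutant, induced genes in the negative set and repressed genes in the positive set. The genotypes differed under ABA more than under control conditions. The median difference of OK100-oct from WT was -0.70 with ABA and 0.07 under control conditions for the negative set, and 0.79 with ABA and -0.06 under control conditions for the positive set.

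**Figure D1:**
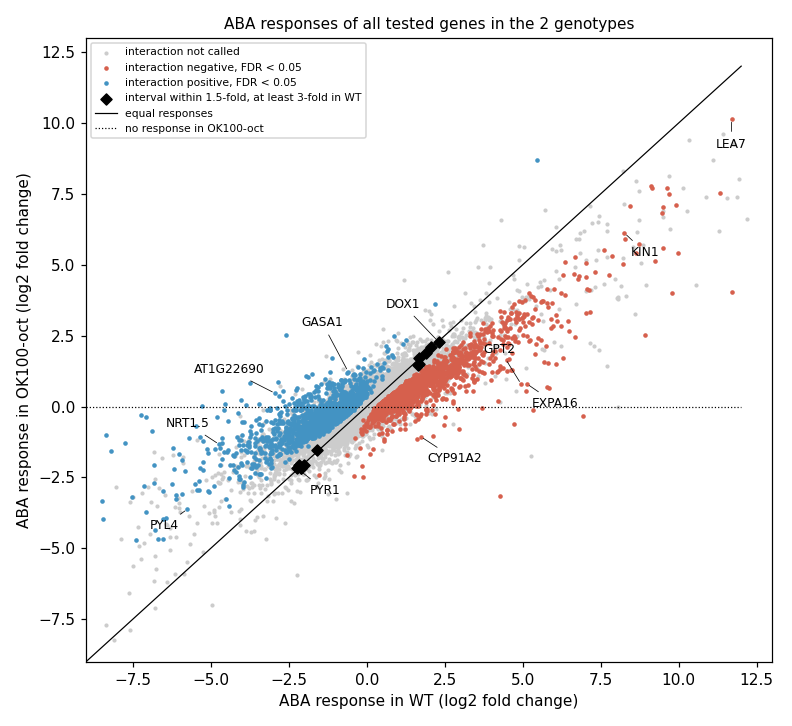
ABA response (log2 fold change, ABA against control) in OK100-oct on the vertical axis and in WT on the horizontal axis, 1 point for each of the 20617 tested genes. Genes with a negative interaction at FDR < 0.05 (red, 1969) lie below the line of equal responses and genes with a positive interaction (blue, 1778) above it, and black diamonds mark the 12 genes at least 3-fold changed in WT whose interaction interval lies within 1.5-fold.

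At least 3-fold responses were found for 733 induced (3.56%) and 500 repressed genes (2.43%) in OK100-oct, against 1481 (7.18%) and 1476 (7.16%) in WT. With no fold minimum, 25.9% of tested genes were higher and 26.1% lower with ABA in OK100-oct, against 32.2% higher and 36.4% lower in WT. The size of the remaining response was described by the retained share, the log2 response in OK100-oct as a percent of that in WT. Over the 5987 genes changed at least 2-fold with ABA in WT, its median was 56.5%, with quartiles of 41.0% and 72.1%. Genes were chosen on their WT response, so this ratio leans low. Of the 1481 genes induced at least 3-fold in WT, 378 kept 25% to 50% of the response and 666 kept 50% to 75%, whereas 73 kept under 25% and 28 moved the other way. At the other end, 265 kept 75% to 100% and 71 responded at least as much in OK100-oct as in WT. The 1476 genes repressed at least 3-fold spread more widely, with 138 under 25%, 52 that moved the other way, 499 at 25% to 50%, 542 at 50% to 75%, 181 at 75% to 100% and 64 at or above the WT response. Complete loss and full retention were therefore both rare among the genes with strong responses.

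The retained share was also given in CPM, since a near-constant share on the log2 scale gives a falling share of the gain in CPM as the fold change grows. Among genes with at least 1 CPM in each group, those induced 2- to 4-fold in WT (n = 1450) kept a median of 0.584 of the log2 response and 43.4% of the gain in CPM. Genes induced at least 16-fold (n = 84) kept 0.646 of the log2 response and 25.97% of the gain. The fall in the CPM share between these bins follows from the change of scale. Genes repressed 2- to 4-fold (n = 1891) kept 0.563 of the log2 response and 74.7% of the loss in CPM, and those repressed 8- to 16-fold (n = 48) kept 0.526 and 90.8%.

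Gene functions were compared through lists of 56 families, pathways and marker sets, of which 49 had at least 3 members changed 2-fold in WT. Counts of called members in the lists below stand against 9.55% negative and 8.62% positive among all tested genes. No such count was tested, and counts near these shares do not set a list apart. Their median retained shares lay between 39.9% and 83.8%. For 34 lists the median fell within the interquartile range of all responding genes, for 3 it fell below and for 12 above. Lipid transfer proteins (39.9%), flavonoid synthesis (40.1%) and the few responding photosystem genes (40.2%) kept the least. For the flavonoid list this came with higher control levels in the mutant. Its median difference of OK100-oct from WT was 0.06 with ABA and 1.02 under control conditions on the log2 scale. Cysteine-rich receptor-like kinases (42.7%), salicylic acid immunity (43.7%), starch degradation (44.2%) and cuticular wax synthesis (46.4%) came next. Aquaporins (83.8%), late embryogenesis abundant (LEA) proteins other than dehydrins (77.8%), ATG8 autophagy genes (77.7%), galactinol and raffinose synthesis (77.2%) and stress-related NAC factors (74.99%) kept the most. Order within this range was not tested, and leaving out a library gave 58.9% to 89.0% for the aquaporins and 37.4% to 44.6% for the lipid transfer proteins. It gave 66.9% to 88.7% for the ATG8 genes, 71.0% to 81.7% for the other LEA genes and 66.9% to 82.9% for the NAC factors. These ranges reach below the upper quartile of 72.1%. The galactinol and raffinose list gave 74.2% to 104.5%, but its members ran from 31.4% (GolS3) to 146% (STS).

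**Figure D2:**
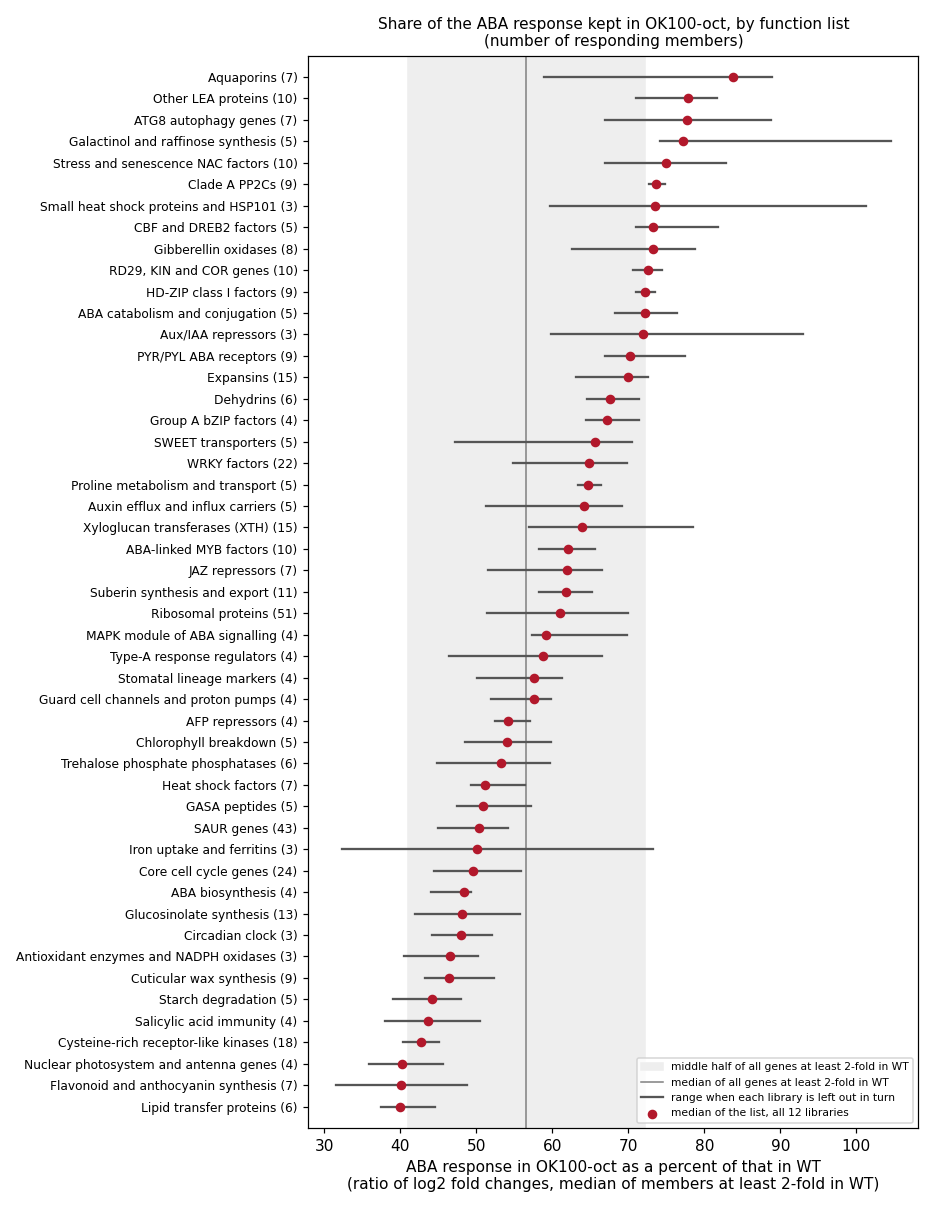
Median retained share of the ABA response in OK100-oct (percent of the log2 response in WT, red points) for 49 function lists, with the number of members changed at least 2-fold in WT in brackets and bars from the lowest to the highest value when each library was left out in turn. The grey band is the interquartile range of all responding genes, 41.0% to 72.1%, and 34 of the 49 medians lie within it.

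At the top of the pathway, the PYR/PYL receptor genes were mostly repressed by ABA, and 3 of 10 had a positive interaction, with 0 negative. PYL4 stood out among them. It had 22.4, 21.9 and 19.7 CPM in OK100-oct with ABA and 258, 262 and 265 CPM in OK100-oct under control conditions, against 5.51, 5.90 and 4.93 CPM in WT with ABA and 311, 237 and 332 CPM in WT under control conditions. The control groups overlapped, and the ABA groups were separate, with more transcript left in OK100-oct. The interaction was 2.13 (SE 0.17, FDR 1.1e-05). RCAR3 averaged 94.0 ± 3.88 CPM in OK100-oct with ABA and 100.3 ± 11.1 CPM in OK100-oct under control conditions (SD, n = 3 each), against 57.1 ± 2.60 CPM in WT with ABA and 117 ± 12.9 CPM in WT under control conditions, with an interaction of 0.94 (FDR 5.9e-04). PYR1 differed from these relatives. It had 14.9, 15.4 and 16.4 CPM in OK100-oct with ABA and 77.9, 68.6 and 64.7 CPM in OK100-oct under control conditions, against 14.8, 13.8 and 14.2 CPM in WT with ABA and 74.3, 53.4 and 73.4 CPM in WT under control conditions. Both genotypes thus lost about the same share of PYR1 transcript, and the 95% interval of its interaction ran from -0.31 to 0.42. PYL7, induced by ABA, also had an interval within 1.5-fold. Of the 9 receptor genes changed at least 2-fold in WT, 4 kept at least 75% of the response and 2 kept under 25%. PYL6 (96.7%) and PYL5 (80.8%) were among the 4, so PYR1 was not alone.

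The PP2C genes, the negative arm of the pathway and themselves induced by ABA, had a negative interaction in 7 of 9 members. They kept a median of 73.7% of the log2 response but 27.1% of the gain in CPM, and the log2 median was 73.9% without the 3 members for which every library of a group had at most 3 counts. ABI1 had 279.7, 289 and 304 CPM in OK100-oct with ABA and 41.5, 46.3 and 44.1 CPM in OK100-oct under control conditions, against 642, 549.7 and 648 CPM in WT with ABA and 49.2, 47.8 and 47.2 CPM in WT under control conditions. ABI1 rose in both genotypes, by 2.72 in OK100-oct and 3.67 in WT on the log2 scale, and the difference was -0.95 (SE 0.13, FDR 2.5e-04). HAB2 kept the least of the members with a called interaction, 49.0% of a WT response of 2.45 (interaction -1.25, FDR 1.9e-05). HAI1 kept 84.3% of its log2 response while its ABA level averaged 87.3 ± 8.74 CPM in OK100-oct and 506 ± 42.6 CPM in WT (SD, n = 3 each).

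All 4 AFP genes, which encode repressors that bind the transcription factor ABI5, had a negative interaction. AFP1 had 84.7, 85.4 and 84.7 CPM in OK100-oct with ABA and 3.07, 3.74 and 3.84 CPM in OK100-oct under control conditions, against 355, 287 and 348 CPM in WT with ABA and 2.05, 2.50 and 3.07 CPM in WT under control conditions. The ABA groups were far apart, and the interaction was -2.43 (SE 0.19, FDR 9.2e-06). AFP2 and TMAC2 kept 42.4% and 43.0% of the WT response, whereas AFP3 kept 75.6%. Of the 7 genes of the MAPK module, 3 had a negative and 1 a positive interaction. MAPKKK18, a kinase gene induced by ABA, had 15.03, 17.2 and 17.7 CPM in OK100-oct with ABA and 0.299, 0.452 and 0.408 CPM in OK100-oct under control conditions, against 85.7, 63.6 and 77.5 CPM in WT with ABA and 0.250, 0.111 and 0.192 CPM in WT under control conditions (interaction -3.20, FDR 3.0e-04). MPK7 followed with -0.96 (FDR 0.00166) and MAPKKK17 with -1.08 (FDR 0.0282), whereas MPK2 had a positive interaction of 0.48 (FDR 0.0417), a call lost when any library but replicate 2 of either WT group was left out.

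Of the 8 group A bZIP genes tested, ABF3, ABI5 and ABF2 had a negative interaction and 0 had a positive one. ABF3 had 212, 225 and 233 CPM in OK100-oct with ABA and 31.9, 37.6 and 36.3 CPM in OK100-oct under control conditions, against 496, 422 and 448 CPM in WT with ABA and 29.7, 37.5 and 31.2 CPM in WT under control conditions. Its ABA levels did not overlap between the genotypes, and the interaction was -1.13 (FDR 2.5e-04). The other members either missed the threshold, as ABF4 did (-0.50, FDR 0.0633, with 27.2% of its 50-base windows shared with a locus on the opposite strand), or hardly responded to ABA, as with AREB3, GBF4 and EEL. ABF1 responded by 0.79 in OK100-oct and 0.98 in WT, and its interaction was not called (FDR 0.333). Among HD-ZIP class I factors, 4 of 14 were negative and 2 positive (1 without replicate 2 or 3 of OK100-oct with ABA or replicate 2 of WT with ABA). HB-7, a factor induced by ABA and drought, had 246, 258 and 261 CPM in OK100-oct with ABA, against 941, 842 and 988 CPM in WT with ABA, where control levels averaged 7.55 ± 0.292 CPM in OK100-oct and 7.07 ± 1.05 CPM in WT (SD, n = 3 each; interaction -1.95, FDR 9.9e-06). MYB96, a factor for wax synthesis genes, had an interaction of -1.47 (FDR 4.6e-05) and kept 58.9% of its response.

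The NAC factors kept more of their response. Of 11 genes, 5 were negative (NAC019, RD26, NAC032, NAC047 and NAC083), but NAC102, ATAF1 and NAC6 kept 91.9%, 81.6% and 81.9%. NAC102 had 301, 306 and 296 CPM in OK100-oct with ABA and 90.5, 145 and 129 CPM in OK100-oct under control conditions, against 357, 340.4 and 409 CPM in WT with ABA and 120.5, 115 and 177 CPM in WT under control conditions, and its interval ran from -0.65 to 0.42. Without control replicate 3 of WT, 8 of the 11 genes were negative and the median share was 66.9%, against 74.99% with all libraries, so the placing of this list rests on that library. Of 57 WRKY genes, 5 were negative and 6 positive, shares near the 9.55% and 8.62% of all tested genes. For this list 8 genes were negative without control replicate 3 of WT, and 3 without any 1 of 5 other libraries (replicate 2 of each of the 4 groups and replicate 1 of WT with ABA). Of 19 heat shock factor genes 5 were negative and 1 positive. HSFA6B kept 79.0% of a WT response of 6.67 (interaction -1.40, FDR 2.8e-04).

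Among genes for protective proteins, the RD29, KIN and COR genes were negative in 9 of 10 members and the dehydrins in 5 of 7, with 0 positive in either list. Oleosins and lipid droplet proteins were negative in 1 of 4, and antioxidant enzymes and NADPH oxidases were negative in 2 of 9 and positive in 2. KIN1 had 127, 158 and 150.0 CPM in OK100-oct with ABA and 2.77, 2.02 and 1.43 CPM in OK100-oct under control conditions, against 825, 936 and 816 CPM in WT with ABA and 2.96, 3.39 and 2.11 CPM in WT under control conditions. It kept 74.1% of its log2 response, and still the highest OK100-oct library lay well below the lowest WT library under ABA (interaction -2.14, FDR 2.3e-04). ERD10, a dehydrin, had 768, 784 and 840.4 CPM in OK100-oct with ABA and 115, 108 and 114 CPM in OK100-oct under control conditions, against 2634, 2438 and 3053 CPM in WT with ABA and 88.8, 87.5 and 67.4 CPM in WT under control conditions (interaction -2.23, FDR 8.9e-06). COR413IM1 was the RD29, KIN and COR member without a call, with -0.52 (FDR 0.105). RAB18 (AT5G66400), a dehydrin long used as an ABA marker, averaged 402 ± 37.5 CPM in OK100-oct with ABA and 5.55 ± 1.83 CPM in OK100-oct under control conditions, against 4563 ± 272 CPM in WT with ABA and 36.3 ± 6.76 CPM in WT under control conditions (SD, n = 3 each). It was lower in OK100-oct in both treatments, and its interaction was not called (-0.79, FDR 0.0688). The dehydrin gene AT1G54410 responded weakly and alike, with 0.63 in OK100-oct and 0.62 in WT and an interval from -0.31 to 0.34.

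Among lists with at least 4 induced members, the other LEA genes gave the widest gap between the scales. Their median retained share was 77.8% on the log2 scale (86.6% without the 3 members for which every library of a group had at most 3 counts), but 13.4% of the gain in CPM. LEA7 had 221, 235 and 232 CPM in OK100-oct with ABA and 0.112, 0.329 and 0.163 CPM in OK100-oct under control conditions, against 3409, 3094 and 3214 CPM in WT with ABA and 0.501, 1.28 and 1.15 CPM in WT under control conditions. OK100-oct was lower in both treatments, with log2 differences of -3.82 with ABA (FDR 4.7e-09) and -2.26 under control conditions (FDR 0.00752), and the interaction was -1.57, just past the threshold (FDR 0.0496). LEA14 (-1.75, FDR 2.1e-05) and LEA4-5 (-1.90, FDR 0.00822) were the other negative members, 3 of 10 in all, where leaving out control replicate 2 of OK100-oct gave 1. SAG21, by contrast, averaged 376 ± 10.8 CPM in OK100-oct with ABA and 180.5 ± 35.0 CPM in OK100-oct under control conditions, against 577 ± 38.2 CPM in WT with ABA and 251 ± 63.4 CPM in WT under control conditions (SD, n = 3 each), and kept 88.2%. The list of small heat shock proteins and HSP101, which also holds HSP70 (AT3G12580), had a called interaction in 0 of 7 members.

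**Figure D3:**
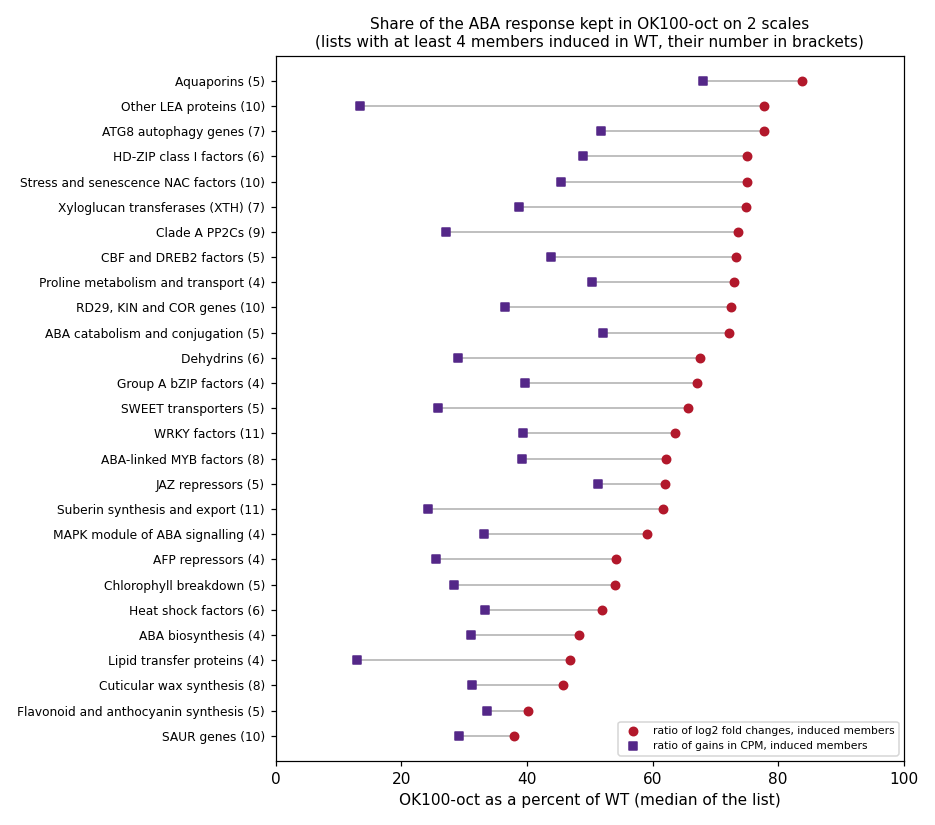
Median share of the ABA induction kept in OK100-oct for lists with at least 4 members induced at least 2-fold in WT, as a ratio of log2 fold changes (red circles) and as a ratio of gains in CPM (purple squares), in percent of WT. The other LEA proteins keep 13.4% of the gain in CPM, and the clade A PP2Cs 27.1%, although their log2 shares are above 70%.

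Genes of ABA metabolism were affected on both sides. ABA biosynthesis was negative in 4 of 7 members, and ABA catabolism and conjugation in 3 of 7, with 0 positive. AAO3, the aldehyde oxidase of the last step of ABA synthesis, had 95.5, 98.7 and 101 CPM in OK100-oct with ABA and 36.8, 50.9 and 48.6 CPM in OK100-oct under control conditions, against 259.7, 255 and 291 CPM in WT with ABA and 41.0, 34.4 and 46.2 CPM in WT under control conditions. Its response was 1.12 in OK100-oct and 2.73 in WT (interaction -1.61, FDR 7.1e-05). CYP707A1, an ABA 8'-hydroxylase of ABA breakdown, averaged 87.9 ± 14.7 CPM in OK100-oct with ABA and 509 ± 35.6 CPM in WT with ABA (SD, n = 3 each) and kept 70.2% of its log2 response (interaction -1.98, FDR 4.2e-05). UGT71B6, which conjugates ABA to glucose, responded by 1.34 in OK100-oct and 1.22 in WT, and its interaction was not called (FDR 0.829). The ABA exporter gene ABCG25 had a negative interaction of -1.48 (FDR 1.6e-04).

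Among genes for sugars and osmolytes, BAM1, a beta-amylase of starch breakdown, was induced in both genotypes and less so in OK100-oct. It had 173, 188 and 173 CPM in OK100-oct with ABA and 53.3, 70.1 and 71.3 CPM in OK100-oct under control conditions, against 591, 489 and 611 CPM in WT with ABA and 57.8, 47.2 and 67.5 CPM in WT under control conditions (interaction -1.84, FDR 6.6e-05). Of 10 starch degradation genes 3 were negative and 1, CT-BMY, was positive (2 without control replicate 3 of WT). P5CS1, the enzyme that commits glutamate to proline, averaged 249 ± 6.26 CPM in OK100-oct with ABA and 1094 ± 149.7 CPM in WT with ABA (SD, n = 3 each; interaction -1.78, FDR 1.5e-05). SWEET4, a sugar exporter, had 7.71, 10.99 and 6.27 CPM in OK100-oct with ABA and 0.524, 1.15 and 0.816 CPM in OK100-oct under control conditions, against 51.7, 50.2 and 54.9 CPM in WT with ABA and 0.250, 0.278 and 0.528 CPM in WT under control conditions (interaction -3.85, FDR 1.5e-04). The SWEET list was negative in 4 of 11 members, but in 1 or 2 when any 1 of 9 libraries was left out (every library other than control replicate 2 of OK100-oct and control replicates 1 and 3 of WT), while SWEET12 kept 78.4%. GolS4, a galactinol synthase, differed from these genes in its control level. It had 18.7, 18.3 and 15.3 CPM in OK100-oct with ABA and 1.12, 1.07 and 1.71 CPM in OK100-oct under control conditions, against 7.24, 7.12 and 7.77 CPM in WT with ABA and 0.200, 0.222 and 0.0960 CPM in WT under control conditions. Its transcript was more abundant in OK100-oct in both treatments, and the interaction of -1.65 (FDR 0.0111) came with a control difference of 2.89 (FDR 5.1e-04).

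Most genes for barrier lipids had a called interaction. Suberin synthesis and export was negative in 9 of 12 genes and cuticular wax synthesis in 7 of 10, with 0 positive in either list, and the suberin genes kept 24.3% of the gain in CPM. FAR4, a fatty acyl reductase for suberin alcohols, had 7.99, 9.63 and 11.8 CPM in OK100-oct with ABA and 3.41, 4.52 and 4.41 CPM in OK100-oct under control conditions, against 26.3, 27.7 and 31.2 CPM in WT with ABA and 3.61, 3.00 and 3.31 CPM in WT under control conditions (interaction -1.84, FDR 1.4e-04). KCS20, an elongase of very long chain fatty acids, had no detectable response in OK100-oct. It had 136, 152 and 133 CPM in OK100-oct with ABA and 151, 134 and 140.3 CPM in OK100-oct under control conditions, against 234, 223 and 299 CPM in WT with ABA and 137, 112 and 105 CPM in WT under control conditions. The mutant groups overlapped and the WT groups did not, with responses of -0.01 in OK100-oct (FDR 0.94) and 1.09 in WT (interaction -1.10, FDR 9.7e-04). In the wax list, CER1, an enzyme of alkane formation, kept 41.4% (interaction -2.10, FDR 6.6e-04), the elongase gene KCS6 kept 46.4% (-1.16, FDR 4.7e-04) and the exporter gene ABCG12 kept 34.6% (-0.90, FDR 0.00113). LTP3, a lipid transfer protein, had 16.1, 18.7 and 22.3 CPM in OK100-oct with ABA and 1.198, 1.15 and 0.939 CPM in OK100-oct under control conditions, against 101, 142 and 184 CPM in WT with ABA and 1.302, 1.11 and 0.672 CPM in WT under control conditions (95% interval of the interaction -3.93 to -2.07, FDR 4.5e-04). It kept 57.8% of its log2 response, more than the median of 39.9% for its list. Of the 7 lipid transfer protein genes tested, 2 were negative and 1 positive. Their shares ran from 23.7% (LTP6) to 78.5% (LTP4, without counts in OK100-oct under control conditions) among members changed at least 2-fold in WT.

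Chlorophyll breakdown was negative in 4 of 7 genes. ACD1, the pheophorbide a oxygenase that opens the chlorophyll ring, had 146, 148 and 138 CPM in OK100-oct with ABA and 57.8, 76.1 and 71.9 CPM in OK100-oct under control conditions, against 379.6, 354 and 422 CPM in WT with ABA and 59.2, 57.1 and 73.2 CPM in WT under control conditions (interaction -1.54, FDR 7.0e-05). NYC1, a chlorophyll b reductase, kept 73.0% without a call (FDR 0.393). Chlorophyll synthesis and the photosystem genes leaned the other way, with 3 of 11 and 9 of 54 positive and 0 negative. Without control replicate 3 of WT these counts were 5 for chlorophyll synthesis and 17 for the photosystem genes, with 1 photosystem gene negative, and without control replicate 2 of OK100-oct they were 1 and 6. Chlorophyll synthesis also had 1 positive gene without any 1 of 6 other libraries (replicates 2 and 3 of OK100-oct with ABA, replicates 1 and 3 of WT with ABA, and control replicates 1 and 2 of WT). CHLM, a methyltransferase of chlorophyll synthesis, averaged 193 ± 7.14 CPM in OK100-oct with ABA and 206 ± 3.52 CPM in OK100-oct under control conditions, against 133 ± 6.34 CPM in WT with ABA and 224 ± 14.7 CPM in WT under control conditions (SD, n = 3 each; interaction 0.66, FDR 0.00136).

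Genes for ribosomes and the cell cycle had called interactions that were positive, with 1 exception. Of 144 ribosomal protein genes, listed as cytosolic, 13 were positive and 0 negative, a share near the 8.62% of all genes. The list is not purely cytosolic. It holds RPL27 (AT5G40950), a plastid ribosomal protein gene whose positive interaction was called whichever library was left out. The median response of the list was -0.48 in OK100-oct and -0.80 in WT. Repression of at least 3-fold was found for 0 of the 144 genes in OK100-oct and 9 in WT, against 2.43% and 7.16% of all tested genes. The WT count is near that share and does not set the list apart. Without control replicate 3 of WT 56 of them were positive and without control replicate 1 of OK100-oct 39 were, whereas leaving out any 1 of 8 other libraries (every one but control replicates 1 and 2 of WT) gave 5 to 8. For the 45 core cell cycle genes, with a median response of -0.56 in OK100-oct and -1.03 in WT, 8 were positive and 1 negative with all libraries. There 22 were positive without control replicate 3 of WT, and 3 to 5 when any 1 of 6 other libraries was left out (replicate 1 of OK100-oct with ABA, control replicates 2 and 3 of OK100-oct, replicates 1 and 3 of WT with ABA and control replicate 1 of WT). The calls in these lists therefore depend on the libraries used. CYCD3;2, a D-type cyclin, averaged 43.7 ± 1.23 CPM in OK100-oct with ABA and 38.0 ± 3.91 CPM in OK100-oct under control conditions, against 33.2 ± 2.50 CPM in WT with ABA and 52.0 ± 3.34 CPM in WT under control conditions (SD, n = 3 each; interaction 0.85, FDR 6.7e-04).

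Cell wall genes went both ways. Of 22 expansin genes, 4 were negative and 2 positive, but 6 were positive without control replicate 3 of WT, 1 was positive without any 1 of 5 other libraries (replicates 2 and 3 of OK100-oct with ABA, control replicates 2 and 3 of OK100-oct and control replicate 1 of WT), and 2 were negative without replicate 1 of WT with ABA. EXPA16 had the lowest interaction of all genes with at least 1 CPM in each group, described further on, whereas EXPA1 was repressed strongly in both genotypes, with 10.13, 14.3 and 17.3 CPM in OK100-oct with ABA and 140.5, 124 and 132 CPM in OK100-oct under control conditions, against 3.19, 5.15 and 8.999 CPM in WT with ABA and 157, 132 and 104 CPM in WT under control conditions (interaction 1.28, FDR 0.0307). XTH6, a xyloglucan-modifying enzyme, moved in opposite directions. It had 173, 133 and 168 CPM in OK100-oct with ABA and 83.0, 102 and 100.3 CPM in OK100-oct under control conditions, against 62.2, 66.8 and 61.0 CPM in WT with ABA and 104, 99.5 and 124 CPM in WT under control conditions. It rose by 0.73 in OK100-oct (FDR 2.5e-04) and fell in WT, with a response of -0.78 (FDR 6.2e-05; interaction 1.52, FDR 7.3e-05).

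Auxin carriers and SAUR genes had more positive than negative interactions. Of 11 auxin carrier genes 4 were positive and 0 negative, and of 48 SAUR genes 7 were positive and 3 negative. The auxin carriers had 2 positive genes without any 1 of 5 libraries (replicates 1 and 3 of OK100-oct with ABA, control replicates 2 and 3 of OK100-oct and replicate 1 of WT with ABA), and 6 SAUR genes were negative without control replicate 3 of WT. LAX3, an auxin influx carrier, had 9.47, 8.86 and 10.2 CPM in OK100-oct with ABA and 30.5, 22.2 and 23.2 CPM in OK100-oct under control conditions, against 2.46, 3.10 and 2.95 CPM in WT with ABA and 22.2, 19.7 and 18.2 CPM in WT under control conditions (interaction 1.41, FDR 4.6e-04). PIN3, an efflux carrier, fell in both genotypes, with log2 responses of -0.62 in OK100-oct and -0.71 in WT and an interval from -0.21 to 0.39. Of the 7 GASA genes, which encode gibberellin-regulated peptides, 4 were positive and 0 negative. GASA1 had 747, 707 and 729 CPM in OK100-oct with ABA and 257, 398 and 273 CPM in OK100-oct under control conditions, against 229.5, 271 and 314 CPM in WT with ABA and 339, 295 and 598 CPM in WT under control conditions. The 3 OK100-oct libraries with ABA were the highest of all 12, and the interaction was 1.83 (FDR 0.00206).

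Most called defence genes were repressed by ABA in WT and less so in OK100-oct. The cysteine-rich receptor-like kinases were positive in 12 of 28 members and negative in 0, a larger share than in any other list with 20 or more tested members. CRK29 had 17.4, 16.5 and 16.4 CPM in OK100-oct with ABA and 67.0, 75.2 and 65.8 CPM in OK100-oct under control conditions, against 7.75, 6.53 and 6.91 CPM in WT with ABA and 72.1, 80.4 and 85.1 CPM in WT under control conditions (interaction 1.44, FDR 2.1e-05; 16.2% of its 50-base windows are shared with an overlapping gene). CRK19 averaged 60.6 ± 5.98 CPM in OK100-oct with ABA and 64.8 ± 4.25 CPM in OK100-oct under control conditions, against 32.2 ± 1.43 CPM in WT with ABA and 69.5 ± 7.83 CPM in WT under control conditions (SD, n = 3 each), with responses of -0.10 in OK100-oct (FDR 0.429) and -1.11 in WT. PR5, PAD4 and EDS1 were the 3 positive genes of the 9 for salicylic acid immunity, and PR5, a pathogenesis-related protein, had 3.04, 5.03 and 3.99 CPM in OK100-oct with ABA, against 0.820, 0.628 and 0.482 CPM in WT with ABA (interaction 2.29, FDR 8.7e-04). NPR1, a salicylic acid receptor, hardly responded in either genotype, with 0.25 in OK100-oct and 0.23 in WT.

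Glucosinolate synthesis was positive in 5 of 16 genes and negative in 0. CYP79B3, which makes indole acetaldoxime from tryptophan, had 30.8, 25.7 and 29.3 CPM in OK100-oct with ABA and 58.1, 38.1 and 55.4 CPM in OK100-oct under control conditions, against 6.29, 9.63 and 7.18 CPM in WT with ABA and 42.7, 66.3 and 31.2 CPM in WT under control conditions (interaction 1.77, FDR 0.00342). MYB29, a regulator of the aliphatic branch, had 2.72 (FDR 0.0224). Without control replicate 3 of WT 13 of the 16 genes were positive, and 2 or 3 were when any 1 of 4 other libraries was left out (replicate 2 of OK100-oct with ABA, replicates 1 and 3 of WT with ABA and control replicate 1 of WT). Flavonoid and anthocyanin synthesis was negative in 7 of 14 genes and positive in 1, with 4 negative without any 1 of 6 libraries (replicates 1 and 3 of OK100-oct with ABA, control replicates 1 and 3 of OK100-oct and replicates 2 and 3 of WT with ABA). TT4, the chalcone synthase, had 92.9, 86.7 and 89.3 CPM in OK100-oct with ABA and 188, 158 and 178 CPM in OK100-oct under control conditions, against 77.2, 77.9 and 106 CPM in WT with ABA and 61.3, 60.9 and 45.8 CPM in WT under control conditions. Its ABA levels overlapped between the genotypes, its control level was higher in OK100-oct by 1.64 on the log2 scale (FDR 2.4e-05), and the interaction was -1.60 (FDR 1.3e-04).

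Of 28 aquaporin genes 3 were negative and 4 positive (2 positive without replicate 3 of either genotype with ABA). PIP2A had 896, 916 and 1005 CPM in OK100-oct with ABA and 444, 554 and 575 CPM in OK100-oct under control conditions, against 1072, 944 and 968 CPM in WT with ABA and 494, 513 and 612 CPM in WT under control conditions. The response was about equal, and the interval ran from -0.41 to 0.33. PIP2;5 had the smallest interaction p in this family, with 0.56 in OK100-oct and 1.71 in WT (interaction -1.15, FDR 0.00221). The family was split. Of the 7 members changed at least 2-fold in WT, 4 kept at least 75% of the response, whereas NIP3;1 and PIP1;4 kept under 25%. The high median of this list therefore does not hold for each member. Of 9 genes for guard cell channels and proton pumps, 3 were negative and 1 positive, but 1 was negative without any 1 of 5 libraries (replicates 1 and 3 of either genotype with ABA and control replicate 2 of WT). GORK, the outward potassium channel of guard cells, averaged 22.4 ± 1.63 CPM in OK100-oct with ABA and 4.83 ± 1.00 CPM in OK100-oct under control conditions, against 75.2 ± 4.87 CPM in WT with ABA and 5.44 ± 0.0417 CPM in WT under control conditions (SD, n = 3 each; interaction -1.58, FDR 8.4e-05). Of 9 genes for iron uptake and ferritins 1 was negative (2 without control replicate 3 of WT). This gene was FER2, a ferritin. It had 1.33, 2.13 and 1.59 CPM in OK100-oct with ABA and 1.83, 1.40 and 0.939 CPM in OK100-oct under control conditions, against 6.74, 6.91 and 7.55 CPM in WT with ABA and 1.25, 1.61 and 1.15 CPM in WT under control conditions. The mutant groups overlapped, with a response of 0.26 (FDR 0.397) where WT rose by 2.40 (interaction -2.14, FDR 0.00104). Of 11 clock genes 2 were negative (1 without replicate 1 of OK100-oct with ABA). CCA1, a core clock factor, kept 48.0% (interaction -1.24, FDR 0.00363). Among the 9 ATG8 genes, ATG8H (-1.39, FDR 0.00544) and APG8A (-0.70, FDR 0.0257) were negative, with 1 negative without any 1 of 5 libraries (replicate 2 of OK100-oct with ABA, control replicate 2 of OK100-oct, replicates 2 and 3 of WT with ABA and control replicate 1 of WT), and APG8H responded by 1.15 in OK100-oct and 1.12 in WT.

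Marker genes of tissues were summed to compare the makeup of the samples. Root hair markers summed to 67.2 to 77.1 CPM in OK100-oct with ABA and 56.9 to 73.1 CPM in OK100-oct under control conditions, against 57.9 to 62.1 CPM in WT with ABA and 42.7 to 64.5 CPM in WT under control conditions. Root endodermis markers rose with ABA in both genotypes. They summed to 45.9 to 65.4 CPM with ABA and 33.2 to 37.6 CPM under control conditions in OK100-oct. In WT these sums were 55.1 to 59.6 CPM with ABA and 27.7 to 40.8 CPM under control conditions. Guard cell markers, GORK among them, summed to 67.4 to 69.4 CPM in OK100-oct with ABA and 57.9 to 59.3 CPM in OK100-oct under control conditions, against 104 to 116 CPM in WT with ABA and 54.4 to 63.0 CPM in WT under control conditions. GORK carried the rise of this sum. The 5 other guard cell markers summed to 43.3 to 48.4 CPM in OK100-oct with ABA and 53.3 to 54.3 CPM in OK100-oct under control conditions, against 34.0 to 37.0 CPM in WT with ABA and 48.9 to 57.6 CPM in WT under control conditions. Stomatal lineage markers summed to 45.9 to 52.2 CPM in OK100-oct with ABA and 61.1 to 68.9 CPM in OK100-oct under control conditions, against 34.8 to 38.4 CPM in WT with ABA and 54.7 to 69.3 CPM in WT under control conditions. Both sums were lower with ABA than under control conditions in each genotype, and higher in OK100-oct than in WT with ABA, with no overlap. Interactions were called for 0 of 6 root hair and 0 of 6 root endodermis markers. MYB60, a guard cell factor, was positive (1.27, FDR 9.3e-05) and GORK negative. The guard cell markers other than GORK did not move as 1. With ABA, MYB60 and FAMA were higher in OK100-oct than in WT, with log2 differences of 1.40 and 0.51. SLAC1 (OZS1) was lower in OK100-oct, with -0.86 with ABA (FDR 0.00451) and -0.95 under control conditions (FDR 0.0247). Of the 7 stomatal lineage markers 2 were positive, EPF1 (1.76, FDR 0.0204) and BASL (0.94, FDR 0.0256), and 0 or 1 were when any 1 of 6 libraries was left out (replicate 1 of OK100-oct with ABA, control replicates 2 and 3 of OK100-oct, replicates 1 and 2 of WT with ABA and control replicate 1 of WT). The part of these markers in the interactions of other genes was not tested. In whole seedlings, fewer cells of a type and less RNA per cell cannot be told apart.

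The genes with the lowest interaction that had at least 1 CPM in each group were EXPA16, GPT2, BFN1, CYP76C2, LTP3, AT1G49450, AT2G36780 and AT2G25625, with values from -4.33 to -2.87. EXPA16 (AT3G55500, chr3:20574752-20576249, minus strand), an expansin, had 6.47, 7.21 and 4.64 CPM in OK100-oct with ABA and 3.26, 2.63 and 4.57 CPM in OK100-oct under control conditions, against 119.5, 107 and 137 CPM in WT with ABA and 3.11, 3.45 and 3.79 CPM in WT under control conditions. Its control groups overlapped, and the response was 0.80 in OK100-oct and 5.13 in WT (interaction -4.33, SE 0.28, FDR 1.9e-06). GPT2 (AT1G61800, chr1:22824414-22826902, plus strand), a plastid translocator for glucose 6-phosphate, had 3.90, 6.82 and 4.07 CPM in OK100-oct with ABA and 2.92, 2.63 and 2.94 CPM in OK100-oct under control conditions, against 55.3, 44.2 and 59.6 CPM in WT with ABA and 1.90, 1.22 and 1.97 CPM in WT under control conditions (interaction -4.15, FDR 8.8e-06). BFN1 (AT1G11190, chr1:3750066-3752780, minus strand), a nuclease of senescence and programmed cell death, had 6.47, 6.05 and 5.45 CPM in OK100-oct with ABA and 2.55, 2.55 and 2.16 CPM in OK100-oct under control conditions, against 58.9, 55.0 and 68.3 CPM in WT with ABA and 2.45, 2.84 and 2.06 CPM in WT under control conditions (interaction -3.33, FDR 9.2e-07). These 3 genes were picked for their interaction, so the wide gap between their ABA groups adds no separate evidence. CYP76C2, a cytochrome P450, and AT1G49450, a WD40 repeat protein, still rose in OK100-oct by 3.03 and 4.16, against 6.08 and 7.04 in WT.

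**Figure D4:**
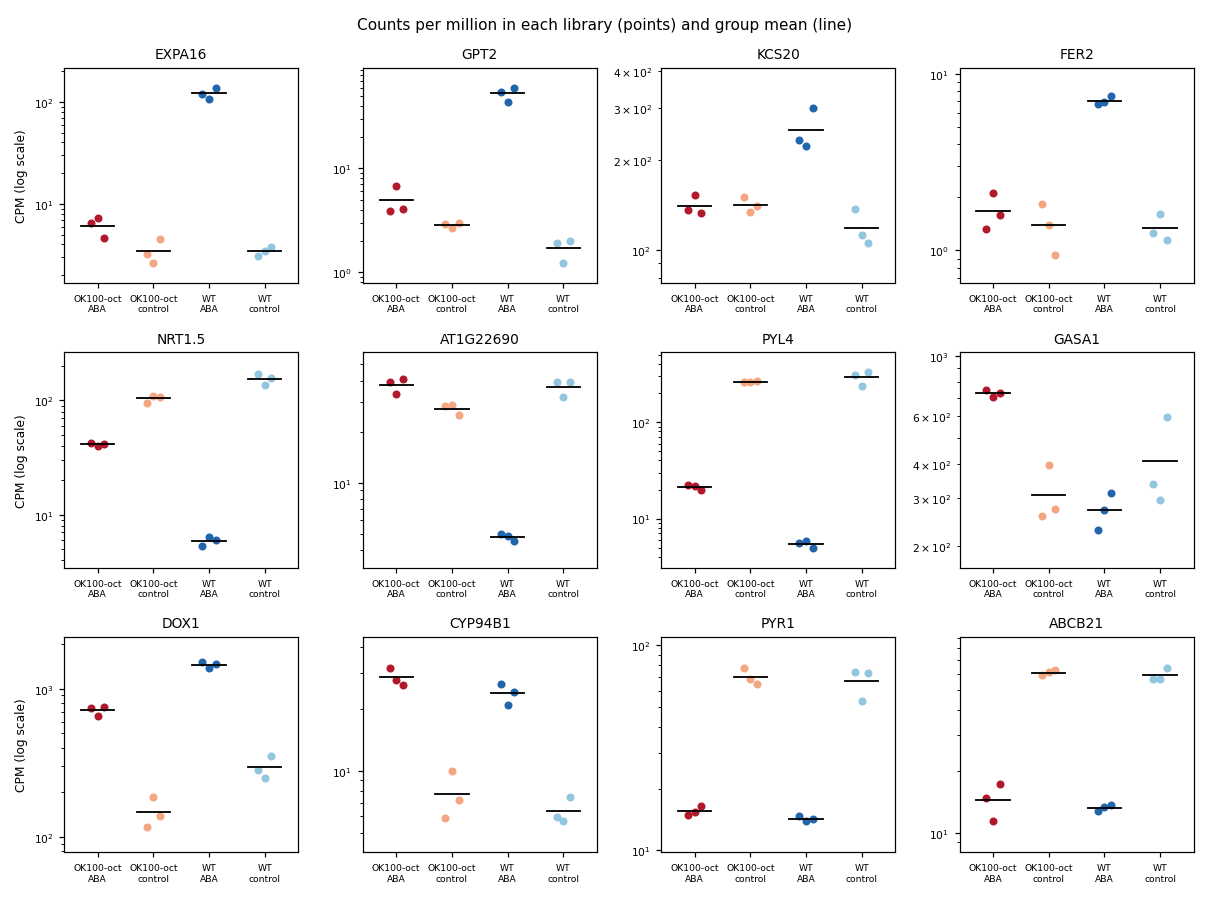
CPM on a log axis in each of the 3 libraries of a group (points) with the group mean (line) for 12 genes, in the order OK100-oct with ABA, OK100-oct control, WT with ABA and WT control. The upper row holds genes whose induction was largely lost in OK100-oct (EXPA16, GPT2, KCS20, FER2), the middle row genes with a positive interaction (NRT1.5, AT1G22690, PYL4, GASA1) and the lower row genes with an interval within 1.5-fold (DOX1, CYP94B1, PYR1, ABCB21).

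The genes with the highest interaction were AT1G15125, AT1G22690, NRT1.5, IGMT1, AT5G64120, AT1G30760, AT2G36690 and PSK4, with values from 2.83 to 3.51. All 8 fell with ABA in WT. AT1G22690 (AT1G22690, chr1:8027126-8028168, plus strand), a gibberellin-regulated family protein, had 39.5, 33.5 and 40.7 CPM in OK100-oct with ABA and 28.2, 28.8 and 25.2 CPM in OK100-oct under control conditions, against 5.01, 4.86 and 4.55 CPM in WT with ABA and 39.4, 32.1 and 39.1 CPM in WT under control conditions. It fell in WT, with a response of -2.94, and rose slightly in OK100-oct, by 0.47 (FDR 0.00196; interaction 3.41, SE 0.16, FDR 7.5e-08). NRT1.5 (AT1G32450, chr1:11715147-11719988, minus strand), a nitrate transporter of root xylem loading, had 42.8, 40.2 and 41.2 CPM in OK100-oct with ABA and 95.4, 110.2 and 107 CPM in OK100-oct under control conditions, against 5.28, 6.36 and 5.95 CPM in WT with ABA and 171, 137 and 159 CPM in WT under control conditions (interaction 3.39, SE 0.15, FDR 7.0e-08). AT1G15125, annotated as a methyltransferase, had 20.7, 12.7 and 21.3 CPM in OK100-oct with ABA, against 1.82, 1.17 and 0.750 CPM in WT with ABA. IGMT1, a methyltransferase of indole glucosinolates, had a response of -0.04 in OK100-oct (FDR 0.901) and -3.09 in WT, and PSK4, a phytosulfokine precursor, -0.05 (FDR 0.909) and -2.88. The repression of these 2 genes was thus not detectable in the mutant.

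A call that misses the threshold does not show an equal response, so genes that barely depended on the genotype were taken from the interval. For 6477 tested genes (31.4%) the 95% interval of the interaction lay within 1.5-fold either way, most of them with weak responses to ABA. Of the 5987 genes changed at least 2-fold in WT, 137 (2.29%) had such an interval, and of those changed at least 3-fold, 6 induced and 6 repressed genes did (0.0291% of tested genes each). The induced ones were DOX1, AT4G13540, CYP94B1, SULTR3;4, AT2G41380 and SSP4b. DOX1 (AT3G01420, chr3:159450-162905, minus strand), an alpha-dioxygenase of oxylipin formation, had 738, 651 and 752 CPM in OK100-oct with ABA and 116, 186 and 139 CPM in OK100-oct under control conditions, against 1519, 1370.5 and 1475 CPM in WT with ABA and 284, 248 and 352 CPM in WT under control conditions. The mutant was lower in both treatments by about the same factor, with responses of 2.28 in OK100-oct and 2.30 in WT and an interval from -0.51 to 0.47. CYP94B1 (AT5G63450, chr5:25408821-25410725, minus strand), an enzyme of jasmonoyl-isoleucine turnover, had 31.8, 27.8 and 26.2 CPM in OK100-oct with ABA and 5.91, 10.04 and 7.19 CPM in OK100-oct under control conditions, against 26.4, 20.9 and 24.2 CPM in WT with ABA and 5.96, 5.67 and 7.44 CPM in WT under control conditions (interval -0.53 to 0.51). The repressed ones were PYR1, ABCB21, MIPS3, AT1G14210, AT5G07580 and AT3G16530. ABCB21, an auxin transporter, had 14.8, 11.4 and 17.3 CPM in OK100-oct with ABA and 58.9, 61.1 and 62.4 CPM in OK100-oct under control conditions, against 12.8, 13.4 and 13.8 CPM in WT with ABA and 56.9, 56.3 and 64.3 CPM in WT under control conditions (interval -0.27 to 0.45). MIPS3, an enzyme of inositol synthesis, had responses of -2.17 in OK100-oct and -2.12 in WT.

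Responses of opposite direction, called in each genotype with a called interaction, were found for 96 genes (0.466% of those tested), of which 66 rose in OK100-oct and fell in WT and 30 did the reverse. GASA1 and XTH6 belong to the larger set, and so does AT5G37990. It had 27.5, 33.7 and 41.7 CPM in OK100-oct with ABA and 18.5, 11.7 and 13.8 CPM in OK100-oct under control conditions, against 2.69, 5.49 and 5.73 CPM in WT with ABA and 11.7, 10.9 and 8.78 CPM in WT under control conditions. TT4 belongs to the smaller set. For CYP91A2, a cytochrome P450 of that set, 98.3% of the 50-base windows are shared with a locus on the opposite strand, so its counts are uncertain.

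The bases upstream of the genes were searched for motifs of known factors on both strands, in the 250 bases before the annotated start (TAIR10.1). ACGTG, the core of ABA-responsive elements, was found for 34.0% of genes with a negative interaction, 20.6% of those with a positive one and 24.2% of the 20499 tested genes with a start. The share followed the direction of the WT response. It was 37.3% for genes induced at least 2-fold in WT, 38.1% for those of them with a negative interaction and 39.1% for those with an interval within 1.5-fold (n = 69). These 3 shares were close to each other. TTGACC or TTGACT, the W-box bound by WRKY factors, was found for 36.6% of the genes with a positive interaction of at least 2-fold and for 28.3% of all tested genes. The share for genes repressed in WT is not set beside it here, so these values do not tie the W-box to the interaction. GGCCCA, a motif common before ribosomal protein genes, was found for 52.8% of that list and 16.3% of all tested genes.

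These sequences are shown to let 3 genes with a strongly negative interaction (AFP1, SWEET4 and EXPA16) be read beside 3 induced genes with an interval within 1.5-fold (SSP4b, AT2G41380 and DOX1). Capitals mark ACGTG or its reverse complement CACGT, and each run ends at the base before the start, 5′ to 3′ on the strand of the gene.
AFP1 (chr1:26038655-26038904, plus strand): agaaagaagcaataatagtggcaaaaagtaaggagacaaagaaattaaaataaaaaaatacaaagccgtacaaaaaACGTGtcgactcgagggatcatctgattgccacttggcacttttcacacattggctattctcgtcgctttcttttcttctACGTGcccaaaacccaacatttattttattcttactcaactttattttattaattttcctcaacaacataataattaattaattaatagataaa
SWEET4 (chr3:10409978-10410227, minus strand): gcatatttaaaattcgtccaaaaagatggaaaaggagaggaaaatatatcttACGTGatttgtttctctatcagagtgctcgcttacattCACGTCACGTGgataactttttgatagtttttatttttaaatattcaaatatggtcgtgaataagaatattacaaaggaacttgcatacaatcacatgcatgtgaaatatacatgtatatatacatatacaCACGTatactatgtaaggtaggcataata
EXPA16 (chr3:20576250-20576499, minus strand): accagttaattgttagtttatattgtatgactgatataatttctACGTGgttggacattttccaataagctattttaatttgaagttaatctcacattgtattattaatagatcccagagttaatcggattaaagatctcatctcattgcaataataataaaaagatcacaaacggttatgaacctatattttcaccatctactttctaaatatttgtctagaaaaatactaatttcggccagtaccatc
SSP4b (chr4:10049439-10049688, minus strand): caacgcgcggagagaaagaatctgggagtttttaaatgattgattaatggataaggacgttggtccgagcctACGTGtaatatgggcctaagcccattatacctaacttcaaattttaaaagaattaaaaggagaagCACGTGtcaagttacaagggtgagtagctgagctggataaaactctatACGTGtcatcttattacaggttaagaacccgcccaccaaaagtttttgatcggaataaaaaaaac
AT2G41380 (chr2:17251569-17251818, plus strand): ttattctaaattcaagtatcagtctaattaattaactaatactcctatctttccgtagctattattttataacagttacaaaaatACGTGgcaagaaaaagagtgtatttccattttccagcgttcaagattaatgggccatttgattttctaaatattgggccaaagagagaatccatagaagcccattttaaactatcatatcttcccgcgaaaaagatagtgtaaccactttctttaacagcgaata
DOX1 (chr3:162906-163155, minus strand): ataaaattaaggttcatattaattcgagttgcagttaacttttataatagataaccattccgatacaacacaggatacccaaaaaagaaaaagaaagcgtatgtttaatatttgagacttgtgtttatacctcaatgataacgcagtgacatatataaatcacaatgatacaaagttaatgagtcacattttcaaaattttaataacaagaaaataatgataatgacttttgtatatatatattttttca
Both sets hold genes with several copies, with 4 in SWEET4, 3 in SSP4b and 2 in AFP1, and DOX1 has 0 in this window. GPT2 and BFN1, among the lowest interactions, also have 0.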

How the data were processed

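RNA of whole seedlings was sequenced in 12 libraries, 3 for each of the 4 groups. The authors trimmed paired-end reads (Trimmomatic 0.36 per the labels), mapped them to TAIR10 with HISAT2 2.1.0 and deposited raw counts per gene from HTSeq 0.9.1. The strand setting is not given in the sources used here, so genes that overlap on opposite strands may share reads, and the labels and the study's methods name different RNA and library kits. Column names gave the group and replicate of each library, and nothing says that replicates came from separate cultures, so p-values measure the spread between these samples, which may be technical.

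Counts were fitted in edgeR 4.0.16 (R 4.3.3) with filterByExpr, TMM factors and a quasi-likelihood model of the 4 groups. The interaction and the 4 contrasts between groups were tested over 20617 genes with Benjamini-Hochberg adjustment (FDR < 0.05), and intervals are 95% Wald intervals. The code was tested on simulated data. CPM used TMM-scaled library sizes. Retained shares used members changed at least 2-fold in WT, in lists with at least 3 such members. Members were matched by gene ID and name, and 5 of 366 names were dropped. Upstream bases and coordinates are from RefSeq's TAIR10.1. Shared sequence is the share of 50-base windows of a gene found elsewhere or overlapped by another gene.

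Genes to be named were the 8 lowest and 8 highest interactions with at least 1 CPM in each group, the 6 most induced and 6 most repressed genes with an interval within 1.5-fold, and in each list the 2 members with the highest CPM and the member with the smallest interaction p. Members named beyond this rule, DIN2 and the genes with opposite responses were picked with their values in view. The interaction, the lists and their members were chosen with earlier results of these data known. Alternatives were other normalizations, filters, fold minimums and upstream lengths, DESeq2 1.42.0, the replicate number as a block, and leaving out each library.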

Additional observations from a re-analysis of the deposited data

Results flagged for a closer look

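ABA responses of opposite direction in OK100-oct and WT, each past the threshold together with the interaction, were found for 96 genes. The 4 given here had the largest values of the smaller of their 2 responses, among nuclear genes with at least 1 CPM in each group. AT1G22690, with a larger interaction than these, also belongs to the 96 but responded weakly in OK100-oct. AT5G37990 had an interaction of 2.40 on the log2 scale, AT2G36690 had 2.84, CYP91A2 had -2.79 and AT3G22240 had 1.96. CYP91A2 shares 98.3% of its 50-base windows with a locus on the opposite strand and AT3G22240 shares 37.8% with another gene. Groups of 3 libraries are too small for a test of single outlying samples.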

How the results depend on the processing

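No called interaction of a named gene changed sign under any alternative. Interactions that were not called changed sign for 33 of 178 named genes, as did the median interaction of 13 of 56 lists. The balance of calls turned with library totals alone (1377 negative, 3028 positive) and without control replicate 3 of WT (2635 negative, 2797 positive). With library totals alone, 3028 genes had a positive interaction, 2313 were repressed at least 3-fold in WT, 2799 were lower in OK100-oct under ABA and 11 repressed genes had an interval within 1.5-fold. With at least 10 counts in every library, which leaves fewer genes tested, induction in OK100-oct held for 429 genes, repression in OK100-oct for 172 and repression in WT for 798. With DESeq2's Wald test, 845 genes were higher and 729 lower in OK100-oct under control conditions. At least 2-fold interactions numbered 675 negative and 688 positive, and an interval within 2-fold held for 151 induced and 70 repressed genes. The induced genes kept 0.340 of the change in CPM, a scale chosen after seeing the data. With the replicate number as a block, 349 genes were higher and 277 lower in control seedlings of OK100-oct than in those of WT. Under this block, 1701 negative and 1479 positive interactions were called. Deviations of same-numbered libraries had correlations from -0.38 to 0.27, and those of libraries with different numbers from -0.43 to 0.46. With 3 libraries a group, these mixed values cannot settle whether the numbers pair the libraries. Except where the alternative's construction sets the count, the cause was not tested.

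Leaving out 1 library gave 1428 to 2635 negative and 1125 to 2797 positive interactions, with both maxima without control replicate 3 of WT. It gave 709 to 820 induced and 441 to 572 repressed genes in OK100-oct, and 1416 to 1635 induced and 1355 to 1794 repressed genes in WT. OK100-oct was higher than WT for 3194 to 4958 genes and lower for 3455 to 4848 under ABA, and higher for 202 to 839 and lower for 142 to 909 under control conditions. Intervals within 1.5-fold held for 2 to 14 induced and 4 to 11 repressed genes, and the retained share ranged from 0.574 to 0.614 (induced genes) and from 0.474 to 0.547 (repressed genes). Over all alternatives together, the changes of processing included, 3249 of the recomputed interactions of named genes kept their side of the threshold. There 102 lost it and 24 gained it. With 3 libraries a group, small interactions were not detectable at this depth.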
